A study of Mus musculus with 9 samples.

Results

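The regions described here are sites of Sox2 chromatin binding that were listed only after deletion of Nkx2-1 and that lie far from genes. The data are Sox2 ChIP-seq (sequencing of the DNA that an antibody to Sox2 pulls down) from lung epithelial cells of 8 week old C57BL/6 mice, with 1 Sox2 library each from wildtype cells, cells with ectopic Sox2 expression, and cells with both ectopic Sox2 expression and Nkx2-1 deletion. The last 2 groups therefore share the ectopic Sox2. The sources used here do not give what drives the ectopic Sox2 or deletes Nkx2-1, nor how many animals stand behind a library, and a peak list holds no expression value with which to check the cell type. A region was taken when it stood in the Nkx2-1 deletion list, overlapped no region of the wildtype or ectopic Sox2 list by 1 bp, and had its summit (the position of highest ChIP coverage) more than 50 kb from every RefSeq protein-coding gene span. The rule found 494 summits in 483 regions, out of 2259 summits in the 2225 regions listed only with Nkx2-1 deletion and 3324 regions in all 3 lists together. Of the 483 regions, 473 held 1 such summit, 9 held 2 and 1 held 3. Members were thus chosen by peak calls, present in one list and absent from the others, and by distance to genes, so none of these is a finding. Nearest to the limit, the member closest to a gene lay 50022 bp from Myh15 with a fold enrichment of 5.60, and the nearest one left out lay 49010 bp from Ndufa4 with a fold of 5.79.

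Sox2 is a transcription factor of the SoxB1 group, which binds a short AT-rich element through its HMG box and can bind DNA wrapped in nucleosomes. In the foregut it marks the oesophagus and the conducting airway, while Nkx2-1 marks the lung. Elements that control a gene from a distance are common around genes for developmental regulators, which often stand beside long stretches without other genes, and the nearest gene is not always the one controlled. A ChIP signal averages over the cells of a library, so more cells bound and longer binding per cell cannot be told apart.

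Sequence could be shown for the 3 members whose summit fell in a RefSeq promoter window, here the 300 bases from 250 before to 50 after a transcript start, because these show where a region far from protein-coding genes meets the start of a long non-coding RNA (lncRNA). All 3 windows belong to lncRNA genes of unknown function. The stretch shared by region and window is printed 5′ to 3′ on the transcript's strand (RefSeq, build GRCm38.p6, which is mm10), with the letters AACAAT or their reverse complement ATTGTT, a core of the Sox element, in capitals.
4930554I06Rik, chr19:21104529-21104759, + strand: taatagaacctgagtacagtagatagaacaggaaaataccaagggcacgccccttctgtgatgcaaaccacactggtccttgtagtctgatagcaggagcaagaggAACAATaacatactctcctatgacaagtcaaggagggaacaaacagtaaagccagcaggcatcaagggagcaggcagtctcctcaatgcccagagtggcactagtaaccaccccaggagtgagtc
Gm13794, chr2:95393992-95394110, + strand: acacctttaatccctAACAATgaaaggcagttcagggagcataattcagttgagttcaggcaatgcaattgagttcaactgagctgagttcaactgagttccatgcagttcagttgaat
Gm31202, chr10:37364466-37364611, - strand: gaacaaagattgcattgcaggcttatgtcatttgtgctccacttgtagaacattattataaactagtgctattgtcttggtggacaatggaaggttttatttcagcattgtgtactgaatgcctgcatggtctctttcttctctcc

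At 4930554I06Rik the summit lay 22 bp from the transcript start and rested on 68 fragments (exact Poisson 95% interval 52.8 to 86.2) with a fold of 4.96. The centre of its AACAAT match lay 50.5 bp from the summit. The nearest protein-coding gene there is Tmc1, 67.6 kb away. At Gm13794 the centre of the AACAAT match lay 5.5 bp from the summit, which rested on 30 fragments (20.2 to 42.8) and lay 924 kb from Lrrc4c. At Gm31202 the shared stretch held no such match. The stretch held the reverse complement of CAAGTG, the core letters bound by Nkx2-1, centred 3.5 bp from a summit of 27 fragments (17.8 to 39.3). In all, 8 motifs were searched on both strands: Sox as AACAAT, Nkx2-1 as CAAGTG, Fox as TGTTTAC, AP-1 as TGANTCA, Tead as GGAATG, Runx as TGTGGTT, Oct as ATGCAAA and Gata as AGATAA. The only other matches in the 3 stretches were those of Runx and Oct at 4930554I06Rik, 91 and 96 bp from the summit. Over both strands, AACAAT was found in 10.7% of 32815 RefSeq promoter windows and in 13.8% of the 11586 lncRNA windows, and CAAGTG in 13.6% of all windows. The shares of all windows were 3.65% for Fox, 7.81% for AP-1, 14.7% for Tead, 5.27% for Runx, 4.63% for Oct and 11.2% for Gata. With no genome sequence used here, the other far summits were not read for motifs. A summit in any RefSeq promoter window was found for 3 of 494 members, or 0.607% (exact binomial interval 0.125 to 1.76), against 3.57% (2.30 to 5.27) of deletion-only summits within 50 kb of genes and 1.46% (0.839 to 2.37) of those inside genes. The rule itself keeps members out of the promoter windows of protein-coding genes, which the other summits can meet. The lower share is therefore no finding, and neither is the lack of a protein-coding gene among the 3 windows.

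MicroRNAs, short RNAs that repress messengers through bases 2 to 8 (the seed), were the other annotated genes for which sequence could be shown. A hairpin lay within 50 kb of 10 of the 494 summits, 13 hairpins in all, which is 1.29% of the 1005 in the RefSeq table. The rule puts hairpins inside protein-coding spans out of reach. Only 347 of the 1005 lie outside such spans, and all 13 are among them. Within 50 kb of any deletion-only summit, members included, lay 121 hairpins. One mature form of each miRNA with a known place in epithelial growth or differentiation, or beside another of the 13 hairpins, is printed with the seed in capitals (RefSeq, GRCm38.p6).
mmu-miR-31-5p: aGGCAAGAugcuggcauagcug
mmu-miR-125b-5p: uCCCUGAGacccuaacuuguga
mmu-miR-221-3p: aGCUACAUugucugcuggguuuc
mmu-miR-222-3p: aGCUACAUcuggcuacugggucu
mmu-miR-216b-5p: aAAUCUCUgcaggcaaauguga
mmu-miR-216c-5p: gAAGAAUCucuacagguaagugu
mmu-miR-421-5p: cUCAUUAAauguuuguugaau
mmu-miR-374b-5p: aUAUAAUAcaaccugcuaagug
mmu-miR-374c-5p: aUAAUACAaccugcuaagug

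The seeds of miR-221-3p and miR-222-3p are the same, and no other pair among the mature forms of the 13 hairpins shared one. Mir221 and Mir222, which target cell cycle inhibitors, lay 22.4 and 21.8 kb from a summit at chrX:19168711-19168914, upstream of both. That summit rested on 66 fragments (51.0 to 84.0) over a local control background of 6, a fold of 4.13. Backgrounds here are in scaled units, in which 1 ChIP fragment of this library counts 0.423. Fold was taken after scaling, with 1 added to both sides, so it is not fragments divided by background. Mir31, a miRNA of squamous epithelium, lay 40.1 kb from a summit with 46 fragments (33.7 to 61.4), also on its upstream side. Mir125b-1, from a miRNA family that restrains epidermal differentiation, had 2 summits on its downstream side. The stronger by fold, 49.5 kb away at chr9:41631376-41631739, had 39 fragments over the genome-wide control background and a fold of 10.8. The nearer, 7.34 kb away, had more fragments, 57, but over a control background of 5 and so a fold of 4.19. Mir216b and Mir216c, transcribed from opposite strands of the same place, lay 46.6 kb from a summit with 54 fragments and a fold of 7.95. Mir421, Mir374b and Mir374c lay 31.7 to 31.9 kb from a summit with 33 fragments.

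Regions far from genes made up a smaller part of the Nkx2-1 deletion-only list than of the genome. Of its 2259 summits, 21.9% lay over 50 kb from genes, which is the rule's own share (interval 20.2 to 23.6), while 37.7% of the sequence between the first and last RefSeq gene of each chromosome lies that far away. The same share was 29.7% (25.9 to 33.7) in the wildtype list, 24.9% (19.4 to 31.0) in the ectopic Sox2 list and 30.0% (25.1 to 35.3) among the 330 summits of the Nkx2-1 deletion list that another list also held. The interval for deletion-only summits did not meet those for the wildtype list or for the shared summits, and it overlapped the one for ectopic Sox2. These intervals cover counting error over summits and no replicate error, since each condition has 1 library.

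**Figure D1:**
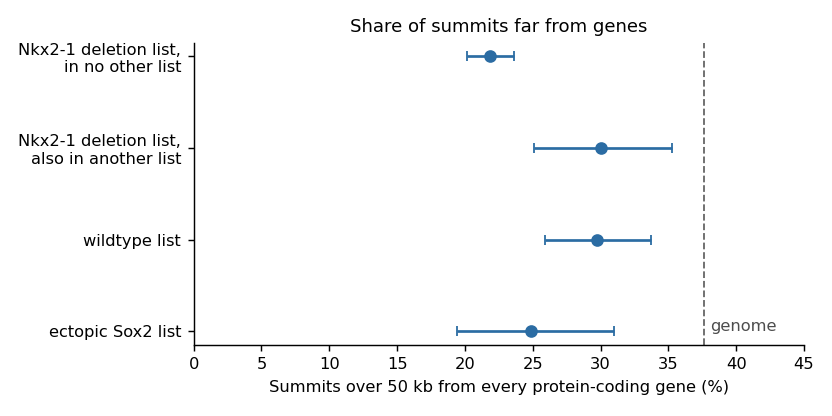
Share of summits (x axis, percent) more than 50 kb from every protein-coding gene, for each list on the y axis; points are shares, bars are exact binomial 95% intervals, and the dashed line is the share of the genome. The deletion-only summits, at 21.9%, sit lowest, and all 4 shares sit below the genome's 37.7%.

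Counted per length of sequence, deletion-only summits were about as dense within 50 kb of genes as inside them, and thinned out with distance beyond. There were 1.06 per Mb inside genes (exact Poisson interval 0.998 to 1.12), 1.03 per Mb (0.952 to 1.11) within 50 kb of them and 0.485 per Mb (0.443 to 0.530) beyond. Beyond 50 kb, 165 summits lay at 50 to 100 kb (0.745 per Mb), 135 at 100 to 200 kb (0.555), 141 at 200 to 500 kb (0.456) and 53 farther than 500 kb (0.218, interval 0.163 to 0.285). The median distance to a gene was 152 kb, and the median width of the gene-free interval around a summit was 722 kb. Assembly gaps and sequence in which reads cannot be placed were not removed from these lengths, and their part in the decline was not tested.

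**Figure D2:**
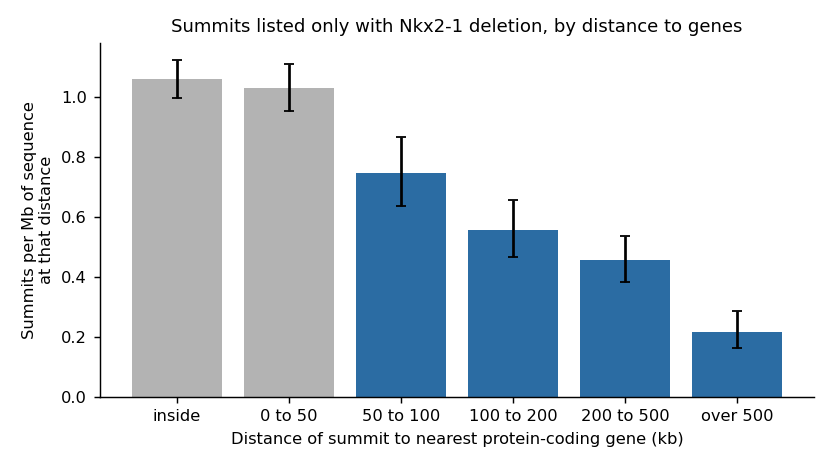
Summits listed only with Nkx2-1 deletion per Mb of sequence (y axis) by distance to the nearest protein-coding gene in kb (x axis); blue bars are the regions far from genes, grey bars the other deletion-only summits, and error bars are exact Poisson 95% intervals. Density is 1.06 per Mb inside genes and 1.03 per Mb within 50 kb of them, and falls farther out to 0.218 per Mb beyond 500 kb.

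In strength the far summits differed little from the others. Fold enrichment is the authors' own value for ChIP over local control background, and its median was 5.70 for far summits, 5.55 for those near genes and 5.84 for those inside genes. The ChIP fragments behind a summit, recovered from the listed fold and p-value, had a median of 36 far from genes (quartiles 28 and 46.75), 39 near them and 36 inside them. Median region widths were 255, 253.5 and 253 bp. A −log10 q of at least 5 was reached by 59.7% of far summits (55.2 to 64.1), 59.8% of near ones and 60.2% of those inside genes, and one of at least 10 by 12.8%, 15.3% and 15.8%. Within the far summits the median fold had no steady order with distance. It was 5.41 at 50 to 100 kb, 5.97 at 100 to 200 kb, 5.79 at 200 to 500 kb and 5.58 beyond. The 99 far summits of the same list that another list also held had similar folds, with a median of 5.90, but more fragments, with a median of 54, and a higher median −log10 q of 9.02 against 5.73.

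The median control background, in the scaled units, was 2 at far and near summits and 1.8 inside genes, with quartiles of 1 and 3 in each class. The classes differed at the ends of that range. The background was at the genome-wide floor for 11.5% of far summits (8.86 to 14.7), 5.51% (3.91 to 7.51) of near ones and 8.97% (7.34 to 10.8) of those inside genes. A background of 5 or more was found at 9.31% of far, 14.6% of near and 9.42% of inside summits. What part this had in which summits were listed was not tested.

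The Nkx2-1 deletion library was 1.51 times as deep as wildtype and 1.90 times as deep as ectopic Sox2, in mean ChIP coverage recovered from the lists. Each far summit was therefore scaled to the other depths at equal enrichment and set beside the fragments needed to reach the lowest listed p-value there, 10 at the genome-wide background of either library. In wildtype 486 of the 494 would have been listed, and in ectopic Sox2 420 (interval 81.6 to 88.1%). The background for these counts, the deletion-only summits inside or near genes, was 98.8% for wildtype and 84.5% for ectopic Sox2, and the members' intervals include both values. With the depth of the ectopic Sox2 library taken as 0.8 times the recovered value, 245 of the 494 would have been listed there, and with that value divided by 0.8, 491. The same settings for the wildtype library gave 414 and 494. The calculation assumes that the control background scales with the library and that the lowest listed p-value was the only limit. It also takes each scaled count without counting error. The summits were chosen for being listed in this library and not in the others, and no allowance was made for that choice.

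**Figure D3:**
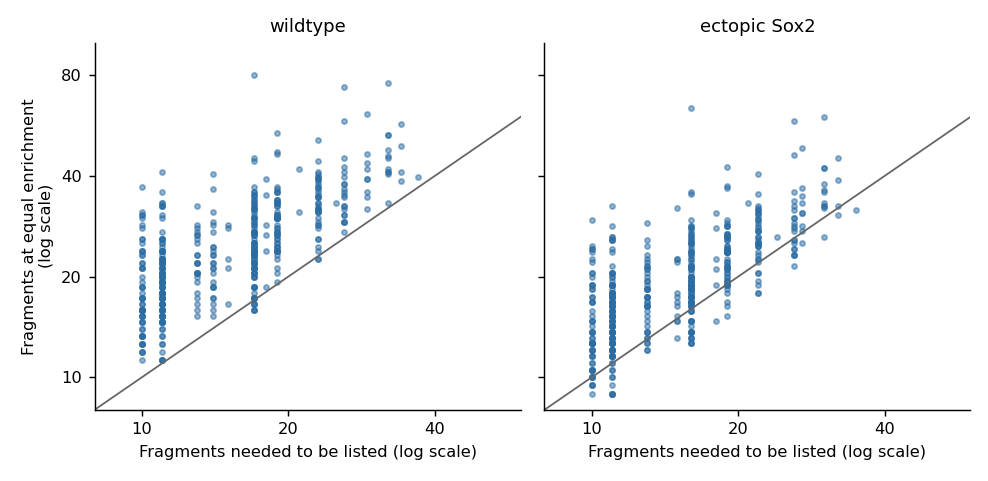
Each point is 1 of the 494 far summits: the fragments it would have at equal enrichment in the wildtype (left) or ectopic Sox2 (right) library (y axis) against the fragments needed to be listed there (x axis), both on log scales, with the line of equality. In wildtype 486 points lie on or above the line, and in ectopic Sox2 420.

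The leading far summit by q lay 188 kb from Prdm1, which encodes a transcriptional repressor active in terminal epidermal differentiation. It rested on 121 fragments (100.4 to 145) over a control background of 2, a fold of 17.4, the highest among the 494. At equal enrichment it would have had 80.3 fragments in wildtype, where 17 were needed, and 63.7 with ectopic Sox2, where 16 were needed. A second far summit of 45 fragments stood in the adjoining region, and on the other side of the gene-free interval lies Prep. The summit near Tgm3, a transglutaminase of the cornified envelope, followed by fold at 15.3, with 56 fragments (42.3 to 72.7) over the genome-wide background, 58.9 kb from the gene. Its nearest wildtype summit lay 876 kb away and its nearest ectopic Sox2 summit 2174 kb away.

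Next by q came summits near Tmc1, a channel of the hair cell, with 111 fragments, near Pik3c3, a lipid kinase of autophagy, with 62, and near the cadherin gene Cdh6 with 81. Their control backgrounds were 5, 1 and 3, and their folds 8.00, 13.6 and 8.82, so the order by fragments and the order by fold differ. The Cdh6 summit lay 2.05 kb from a wildtype summit, outside its region. Near Rorb, a nuclear receptor gene, a summit of 114 fragments over a background of 7 lay within the lncRNA Gm50212 (fold 6.16). Near Plk2, a polo-like kinase gene, one of 67 fragments had a fold of 9.79. The last 5 of the leading 12 had 45 to 54 fragments, folds of 11.9 to 12.9 and backgrounds of 0.615 or 1. Their intervals are bordered by Rarb and Thrb, receptors for retinoic acid and thyroid hormone, by Zfp804a and Fsip2, by Luzp2 and Siglech, by Fst, the activin antagonist follistatin, and Mocs2, and by Nudt12 and Efna5, an ephrin.

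By fold, the next 9 summits had 39 to 50 fragments and folds of 10.8 to 11.9. One lay between Fut10 and Nrg1, the neuregulin ligand of Erbb receptors, 180 kb from Fut10 and 362 kb from Nrg1, with 43 fragments. The others were nearest to Rgs1, Abhd5, Rnd3, the ephrin gene Efnb2, the bile acid transporter gene Slc10a2, Amd2, Flrt2 and Gm40514. The summit nearest to Gm40514 is the stronger by fold of the Mir125b-1 summits, and it was tied with that of Flrt2. The Efnb2 and Slc10a2 summits stood in the same gene-free interval of 3512 kb and had 49 fragments each.

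The far regions were spread over 337 windows of 1 Mb, of which 239 held 1 summit and 17 held 4 or more. The most crowded, on chromosome 16 from 76 to 77 Mb, held 8 summits in 5 regions around Nrip1, a nuclear receptor corepressor gene, with neither a wildtype nor an ectopic Sox2 summit. Their fragments ranged from 19 to 62 and their folds from 3.03 to 8.18. Of these 8, the 3 in the region below Nrip1, with folds of 3.08 to 3.57, shared 1 region and had a −log10 q of at most 1.41, among the weakest listed. On chromosome 7 from 72 to 73 Mb, 7 summits in 7 regions lay between Mctp2 and Rgma, again with no summit of another list, and 9 stood in that gene-free interval as a whole. They had 17 to 62 fragments, and the strongest by q, 146 kb from Mctp2, had 39 and a fold of 8.76.

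Each of 4 further windows held 5 far summits. Between Plk2 and Actbl2 the 5 summits had 26 to 67 fragments, and a summit of the same list with 88 fragments lay too close to Plk2 to be a member. That summit and a wildtype summit of 45 fragments stood at nearly the same place, 41.9 and 41.8 kb from the lower end of Plk2. Below Flrt2, which encodes a guidance receptor, 5 summits of 25 to 49 fragments lay 200 to 457 kb from the gene. The other windows lay between Tmx1 and Frmd6 and between Slc4a3 and Epha4. Among windows with 4 were those beside Klf6, a Krüppel-like factor gene with summits 57.7 to 270 kb away on both sides, and beside Cited2, a transcriptional coregulator gene with summits 307 to 710 kb away. The Klf6 summits had 26 to 50 fragments and the Cited2 summits 38 to 72.

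Chromosomes differed in how many far summits they held per length of far sequence. Chromosome 10 held 54, or 1.21 per Mb (0.909 to 1.58), chromosome 16 held 42, or 1.09 (0.785 to 1.47), and chromosome 13 held 44, or 0.970 (0.705 to 1.30). Chromosome 5 held 13 and chromosome 11 held 9, with 0.264 (0.141 to 0.451) and 0.258 (0.118 to 0.490) per Mb. Chromosome X held 7, or 0.0898 (0.0361 to 0.185), and Y held 1. The intervals of chromosomes 10, 16 and 13 did not meet those of 5, 11 and X. Apart from chromosome 13, this order was not particular to far regions. Deletion-only summits inside or near genes stood at 1.68 per Mb on chromosome 10 and 1.53 on 16. They stood at 0.761 on 5, 0.827 on 11 and 0.280 on X. Chromosome 13 alone held more deletion-only summits per Mb far from genes than inside or near them, where it had 0.737. That value lies within the interval of its far density, so counting error could cover the difference. Chromosome 13 also held 26 of the 164 far wildtype summits, more than any other chromosome. Median control backgrounds at far summits were 2 on chromosomes 10, 16 and X, 1.9 on 13, 3 on 19 and 1 on 5 and 11. The part of copy number, of reads that cannot be placed or of the sex of the animals in these differences was not tested.

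**Figure D4:**
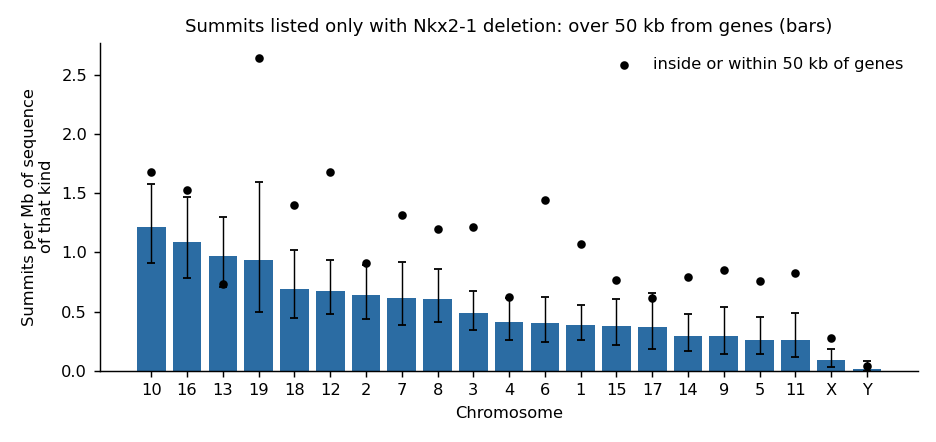
Far summits listed only with Nkx2-1 deletion per Mb of far sequence on each chromosome (bars, with exact Poisson 95% intervals), and deletion-only summits inside or within 50 kb of genes per Mb of that sequence (points). Chromosomes are ordered by the bars, from 1.21 on chromosome 10 to near 0 on Y. On chromosome 13 the bar stands above the point, which lies within the bar's interval.

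The share of far summits close to lncRNA genes was above that of the far sequence. For deletion-only summits near or inside protein-coding genes the matching share of sequence was not computed, so their shares stand without a background. Of the 494 summits, 77 (15.6%, interval 12.5 to 19.1) lay inside a lncRNA span and 186 (37.7%, 33.4 to 42.1) outside but within 50 kb of one, where the far sequence itself gives 10.0% and 21.1%. Among summits within 50 kb of protein-coding genes the same shares were 14.3% (11.7 to 17.2) and 44.2% (40.4 to 48.0), and among those inside such genes 4.76% and 37.1%. The difference from the far sequence was also seen at like distance from protein-coding genes. At 50 to 100 kb, 64.2% of summits (56.4 to 71.5) and 43.3% of sequence were inside or within 50 kb of a lncRNA. The values were 57.8% and 37.4% at 100 to 200 kb, 46.1% and 29.9% at 200 to 500 kb, and 26.4% (15.3 to 40.3) and 15.1% beyond. Over 50 kb from both kinds of gene lay 231 summits (46.8%, 42.3 to 51.3), against 68.9% of the far sequence. Assembly gaps and sequence in which reads cannot be placed were not removed from the far sequence here either. Their part in the difference was not tested.

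Of 21883 protein-coding genes, 620 stood next to a far summit on either side (2.83%). Of the 4744 that border a gene-free interval over 100 kb wide between neighbouring genes, 619 did (13%). Such intervals held 492 of the 494 far summits. The summits by Insr and Gm52481 lay at chromosome ends, beyond the first or last gene. The gene lists below were written with earlier results of these data known, so that their counts, densities and intervals are descriptions and no test of enrichment. Of 32 genes of basal and squamous epithelium, the stratified lining marked by Trp63 and Krt5, 8 stood next to a far summit, all of them among the 15 that border a wide interval. They were Prdm1, Tgm3, Dsc3, Klf5, Klf4, Trp63, Fgfr2 and Pitx1. The intervals beside genes of this list held 13 far summits in 7.13 Mb of far sequence, or 1.82 per Mb (0.971 to 3.12). The value over all such intervals was 0.489 per Mb (0.447 to 0.534). A summit counts here even where the gene across the interval is nearer, and 6 of the 8 genes were the nearest gene of a far summit. Because the list was chosen with these data known, the higher density is no finding.

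Within that list the values ranged widely. Klf5, a factor of proliferating epithelium, had a summit of 70 fragments (54.6 to 88.4) 136 kb away, with a fold of 7.66, and another of 29 fragments 143 kb away, between Klf5 and Klf12. Trp63, the master regulator of basal cells, had a summit 101 kb away with 49 fragments (36.3 to 64.8) over a background of 3, a fold of 5.44, in the interval shared with Tprg. Klf4, a factor of barrier formation, shared an interval with Actl7b that held 3 summits of 35, 27 and 17 fragments. The strongest of them lay 1107 kb from Klf4 and nearer to Actl7b, and the one closest to Klf4 lay 427 kb away with a −log10 q of 2.89. Fgfr2, a receptor for Fgf7 and Fgf10, had a weaker summit of 32 fragments 70.3 kb away. The desmosomal cadherin gene Dsc3 closed the interval that begins at Cdh2, but its summits lay over 2200 kb from it and nearer to Cdh2.

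Of 75 genes of Wnt, Notch, Fgf, Bmp, Hedgehog and Egf signalling, 13 stood next to a far summit, out of 43 bordering a wide interval. The density in their intervals was 0.855 per Mb (0.489 to 1.39), a range whose lower end lies at the 0.489 of all intervals. Fgfr2 counts both here and in the basal list. After Nrg1, the leading genes of the signalling list by q were Fgf10, Erbb4 and Hes1. Fgf10, a growth factor of lung branching, lay 353 kb from a summit with 36 fragments and a fold of 10.1, which was nearer to Nnt. Erbb4, a receptor for neuregulins, lay 56.9 kb from a summit with 41 fragments and a fold of 9.18. Hes1, a repressor downstream of Notch, had 2 summits at 150 and 137 kb, with 52 and 25 fragments. The Egf receptor ligand gene Areg had 1, at 93.5 kb, with 23 fragments and a −log10 q of 3.23, on the side of Btc.

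Of 39 foregut and lung transcription factor genes, 5 stood next to a far summit, out of 25 bordering a wide interval, at 0.728 per Mb (0.293 to 1.5). By q they were Irx1, Tbx4, Foxp1, Id4 and Irx2, with 29 to 47 fragments at the leading summit of each. Tbx4, a lung mesenchyme factor, was the closest, at 69.0 kb. Of 59 other developmental transcription factor genes, 15 stood next to one, out of 51, at 0.534 per Mb (0.335 to 0.809). They were led by Rorb, Zeb2, Runx1 and Ikzf2. Zeb2, a repressor of epithelial adhesion genes, had 46 fragments at 402 kb with a fold of 10.2. Runx1 had 49 at 175 kb with a fold of 9.88, at a place 1.71 kb from summits of both other lists. The density ranges of the foregut and of the other developmental factors both include the 0.489 per Mb of all intervals. Of 60 genes of neuronal adhesion and synapse, 20 stood next to a far summit, out of 57. The density was 0.219 per Mb (0.144 to 0.319), below the value over all intervals. These genes border the widest intervals, with a median of 0.882 Mb of far sequence against 0.133 Mb over all intervals. Deletion-only summits beyond 500 kb from any gene had a like density, 0.218 per Mb. The part of interval width in the low value was not tested. Cdh6, Cdh9, Cdh2 and Cntn6 led them, with Cdh6 and Cdh9 on the same summit.

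The Sox family had 1 of 19 genes next to a far summit, Sox9, 529 kb from a summit of 33 fragments, with 11 genes bordering a wide interval. The density beside them was 0.128 per Mb (0.00323 to 0.711), a range that includes the 0.489 of all intervals. None of the 41 alveolar and airway genes and none of the 27 gastric and intestinal genes stood next to one. Only 9 and 5 of them border a wide interval, with 1.72 and 2.35 Mb of far sequence, and upper limits of 2.15 and 1.57 per Mb, so a density like that of all intervals could not have been told from 0. Among 37 marker genes of immune, endothelial and mesenchymal cells, which a preparation of lung epithelium could also hold, only the endothelial gene Emcn stood next to one, 190 kb from a summit of 37 fragments. Only 16 of these genes border a wide interval. The density beside them was 0.193 per Mb (0.00489 to 1.08), a range that also includes 0.489.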

How the data were processed

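Sox2 ChIP-seq was made from 3 conditions with 1 library each; the submitters' processing notes name Bowtie2 2.2.9, SAMtools 1.4, MACS2 2.1.1 and HOMER 4.8.3 with build mm10, without their roles. Control libraries (input, IgG) were not used here. The deposited MACS2 lists, called per library, give for each summit the authors' score, fold ratio over control background, −log10 p and −log10 q, and positions counted from 0, printed here from 1. The sources used here name neither the control behind each list nor the calling threshold. Whole ChIP fragments and control background were solved from fold (pseudocount 1) and −log10 p as a Poisson tail, within a tolerance of 0.005 fragments, uniquely for 549 of 552 wildtype, 228 of 229 ectopic Sox2 and 2587 of 2589 Nkx2-1 deletion summits, and for all 494 members. Backgrounds stayed in scaled units, in which 1 ChIP fragment counted 0.741, 0.638 and 0.423 for wildtype, ectopic Sox2 and Nkx2-1 deletion. Every recovered background was the genome-wide floor or a multiple of 0.02, and the floor over the fragment scale gave mean coverages of 0.963, 0.764 and 1.45 fragments. No read total was used.

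Genes were the RefSeq spans of GRCm38.p6, with 21883 protein-coding genes. Every entry of the 9 gene lists matched a RefSeq symbol. Genes named are the nearest to the 12 members of highest q, the next 8 by fold, the 5 farthest, those of the most crowded 1 Mb windows (ties kept), and up to 4 per list by q. Others were named after their values were seen: the remaining basal list genes, Irx2, the Klf6, Cited2 and Areg loci, members close to wildtype summits, and the miRNA and lncRNA genes. The members and lists were chosen with earlier results of these data known. Shares carry exact binomial (Clopper-Pearson) and counts exact Poisson 95% intervals, for counting error only. With 1 library per condition no test was made between conditions. Scripts were tested on simulated data with Python 3.11.15, NumPy 2.4.6, pandas 2.3.3 and SciPy 1.17.1.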

Additional observations from a re-analysis of the deposited data

How the results depend on the processing

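The share of deletion-only summits far from genes moved with the distance, from 31.7% beyond 20 kb to 14.6% beyond 100 kb, and was 6.82% when RefSeq genes of every type counted. It stayed within its interval under the 6 other settings. The number of regions was 153 with genes of every type and 294 at a −log10 q of at least 5, and within 1.5 times 483 under the 5 others. The median fold was 6.22 with genes of every type, 6.72 at a −log10 q of at least 5 and 5.98 at one of at least 3, and the median fragments were 39 at a −log10 q of at least 5. At equal enrichment 245 of the members would pass in ectopic Sox2 with that library's depth taken as 0.8 times its value, and 491 with it divided by 0.8. In wildtype the same settings gave 414 and 494. Genes next to a far summit fell by over 1.5 times in some lists. With genes of every type the basal list had 4, the other developmental factors 8, the neuronal list 13 and signalling 7. At a −log10 q of at least 5 the neuronal list had 13 and signalling 7, and beyond 100 kb signalling had 8. The motif shares planned for all summits were not run, because they need a genome sequence. No paired analysis was possible because each condition has 1 Sox2 library. For the same reason no replicate could be left out.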

Other observations

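Some far regions lay close to a region of another list without overlapping it. A wildtype summit lay within 1 kb of 5 of the 494 far summits, within 10 kb of 17 and within 100 kb of 58 (11.7%). For ectopic Sox2 these numbers were 0, 4 and 22 (4.45%). The closest were a summit near Slc5a12, a transporter gene, 0.3 kb from a wildtype summit with 23 fragments of its own, and ones near Kirrel3 at 0.620 kb with 43 fragments and Fat4, an atypical cadherin gene, at 0.648 kb with 31. The Slc5a12 locus held a further far summit 1.93 kb from that list's summit, with 36 fragments and a fold of 10.1, above the other one's 4.47.

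The far summit most remote from any protein-coding gene lay 2200 kb from Pcdh17, a protocadherin gene, with 30 fragments and a fold of 6.85. Those nearest to 1700015G11Rik, Zpld1, Grik2 and Cntnap5a followed, at 1212, 1182, 1027 and 1011 kb, with 32, 44, 32 and 52 fragments. Their folds ran from 3.27 to 4.85 and their control backgrounds from 2 to 5. The only far summit on chromosome Y, 60.1 kb from Gm52481, had 41 fragments over a background of 3.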
